A study of Saccharomyces cerevisiae with 4 samples.

Results

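The 10 genes described here encode the histones of the budding yeast Saccharomyces cerevisiae. They are both copies of each core histone gene (HTA1 and HTA2 for H2A, HTB1 and HTB2 for H2B, HHT1 and HHT2 for H3, HHF1 and HHF2 for H4), the H2A variant gene HTZ1 and the linker histone gene HHO1. They were chosen by systematic name among 6388 gene probes, with 1 probe a gene printed in 3 spots, and not by their values. Messenger RNA of 3 strains was compared after 0.6 mol/L NaCl for 45 min on 4 two-colour oligonucleotide slides. BF2 carried a deletion of BDF1 with the plasmids pYX242 and pRS316. BF2B carried deletions of BDF1 and BDF2 with a construct written BDF2 L and pYX242. BF2S carried the same deletions with BDF2 L and a construct written SIR2 H. The labels do not say what L and H stand for. All 3 strains therefore lacked BDF1 and had been in salt, and no untreated culture is among the samples, so an effect of salt or of BDF1 on these genes was not measured.

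The core histones, as H2A with H2B and H3 with H4, form the nucleosome around which DNA is wrapped. In yeast each core histone is encoded by a gene at each of 2 loci, and each locus holds divergently transcribed partners with a shared promoter. Transcription of these genes rises sharply as cells enter S phase, and the HIR complex, with the chaperones Asf1 and Rtt106, represses all of these loci but HTA2-HTB2 outside S phase. The activators Spt10 and Spt21 act on their promoters. HTZ1 encodes H2A.Z, which the SWR1 complex places in nucleosomes next to promoters, and Bdf1 is a subunit of that complex. Bdf1 and Bdf2 are bromodomain proteins that bind acetylated histone tails, and Sir2 removes acetyl groups from histones.

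BF2 served as the partner of BF2B on 2 slides and of BF2S on the other 2, with the dyes exchanged between the slides. Slide 1 had BF2B or BF2S in Cy5 and slide 2 had it in Cy3. Since 1 RNA pair was used for both slides, they count as 1 replicate. No test was therefore possible and no p-value is given, and an SD shows only how far the slides of a dye swap lay apart. Calls required a difference of over 2-fold on each slide, with the same sign, and a signal above background in either channel of each slide. On the BF2B slides the probes of BDF1 and SIR2 were not above background in either channel, and the log2 ratio of BDF2 was 1.61 ± 0.03, higher in BF2B. Blank spots on these slides had medians of 29 to 110 brightness units. On the BF2S slides they reached 6049.25 and 5325 units in the channel of the sample labelled BF2S, above 95.9% and 98.2% of the gene probes, and there the deleted BDF1 gave a log2 ratio of 1.64 ± 0.28. SIR2, which the BF2S label adds, gave 1.51 ± 0.18 on the same slides. Its BF2S signals of 1687.5 and 1309.5 units lay below those blank medians. BDF2 gave 0.65 ± 0.61 there and was not called. The signal of BDF2 was lower in BF2S than in BF2 on both slides, and its mean was -0.73 when slides were only centred on their median. The histone genes were for these reasons read mainly on the BF2B slides.

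In the table of RefSeq genes (assembly R64), used for names and neighbours, the core histone genes lie as 4 adjacent, oppositely oriented neighbours. HTA1 (YDR225W) and HTB1 (YDR224C) lie side by side on chromosome IV. On chromosome II lie HTA2 (YBL003C) with HTB2 (YBL002W) and, as a separate locus, HHT1 (YBR010W) with HHF1 (YBR009C). HHT2 (YNL031C) and HHF2 (YNL030W) are neighbours on chromosome XIV. HTZ1 (YOL012C) on chromosome XV and HHO1 (YPL127C) on chromosome XVI stand alone. Both H3 genes encode the same protein, as do both H4 genes, and the copies of H2A and of H2B differ at a few residues. Probe sequences were not used here, so how far a probe tells one copy from the other was not tested, and the labelled strand is not given in the sources used here.

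BF2B and BF2 were set side by side to see which transcripts differ in salt between a strain that has BDF2 L in place of the deleted BDF2 and a strain in which BDF2 was not deleted. None of the 10 histone genes was called. Their mean log2 ratios of BF2B over BF2 lay between -0.26 for HHF1 and 0.21 for HTZ1, that is from 0.835-fold to 1.15-fold. Their median was -0.08, beside -0.01 over the 4660 genes above background. Of those genes 2.98% were called, 1.37% as higher and 1.61% as lower, so a count of 0 of 10 sits near the background and is no result about histone genes in particular. At over 1.5-fold on both slides the count of histone genes was also 0, where 8.82% of all genes passed. The median size of the log2 ratio, whatever its sign, was 0.15 for the histone genes and 0.21 for all genes above background. In the main processing the histone ratios thus lay within 1.20-fold in either direction on the mean of both slides. Under another processing the mean of HHF1 reached -0.38, and HHF2 read -0.48 on slide 2. The value of 1.20-fold is therefore no upper limit on the difference. In bulk RNA, fewer cells in S phase and less histone mRNA per cell cannot be told apart.

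**Figure D1:**
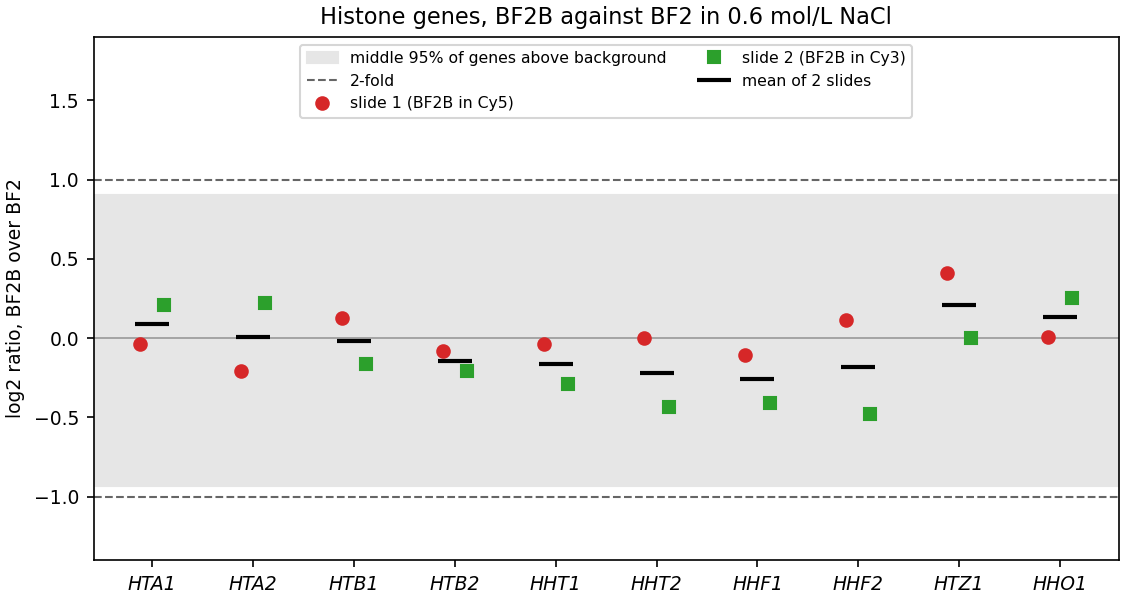
Log2 ratio of BF2B over BF2 for each histone gene on slide 1 (circles) and slide 2 (squares), with the mean of both as a bar. Dashed lines mark 2-fold and the grey band the middle 95% of the 4660 genes above background (-0.93 to 0.91); every histone value lies inside the band.

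The H2A genes gave strong signals in both strains. HTA1 read 7546 brightness units in BF2B and 7198.5 in BF2 on slide 1, and 8763 and 9377 on slide 2. Its log2 ratios were -0.04 and 0.21, with a mean of 0.09 ± 0.17. The raw signals leaned towards BF2B on slide 1 and towards BF2 on slide 2, and the ratios after correction had the reverse signs, so no direction can be given. HTA2 read 9958.5 units in BF2B and 10411 in BF2 on slide 1, and 13519 and 14364 on slide 2. Its log2 ratios of -0.21 and 0.22 averaged 0.0078 ± 0.31. HTA2 too changed sign between the slides, and its mean lay close to an equal level in both strains. The neighbours of these genes encode H2B, the partner of H2A in its dimer. HTB1 gave 3798 units in BF2B and 3396 in BF2 on slide 1 and 3995.5 and 5118 on slide 2, with log2 ratios of 0.13 and -0.16 and a mean of -0.02 ± 0.20. HTB2 gave 2285 and 2445.5 units on slide 1 and 2386 and 3204 on slide 2, with log2 ratios of -0.08 and -0.21 and a mean of -0.14 ± 0.09. Of these 4 genes HTB2 alone kept its sign on both slides after loess, the intensity-dependent correction of the dyes, at 1.10-fold lower in BF2B.

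The H3 and H4 genes lay slightly below 0. HHT1, an H3 gene, gave 8250.5 units in BF2B and 7995 in BF2 on slide 1, and 8643 and 12355 on slide 2. Its log2 ratios were -0.04 and -0.29, with a mean of -0.17 ± 0.18. HHT2, the other H3 gene, gave 3847 and 3749 units on slide 1 and 3756 and 6049 on slide 2, with log2 ratios of -0.0020 and -0.43 and a mean of -0.22 ± 0.31. On slide 1 both H3 genes were nearly equal in the 2 strains, and the difference came from slide 2. HHF1, an H4 gene, gave 6660 units in BF2B and 6856.5 in BF2 on slide 1, and 5063 and 8141 on slide 2. Its log2 ratios of -0.11 and -0.41 averaged -0.26 ± 0.21, which at 1.20-fold lower was the farthest from 0 among the 10 genes. HHF2 gave 3996.5 and 3633.5 units on slide 1 and 3789 and 6064 on slide 2, with log2 ratios of 0.12 and -0.48 and a mean of -0.18 ± 0.42. HHF2 changed sign between the slides and had the largest spread of the 10. The means of all 4 H3 and H4 genes stayed below 0 in the main processing and in the 8 alternatives that kept both slides, between -0.38 and -0.13, but 1 of the 4 was above 0 on slide 1. When slides were only centred on their median, all 8 core genes were above 0 on slide 1 and below 0 on slide 2. HHT1 then stood at 0.29 and -0.63 and HHF1 at 0.18 and -0.71, so the sign shared by both slides for these genes rests on loess. For HHT2 and HHF2 the mean was smaller than the SD of the slides, and for HHT1 it was about equal to it.

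**Figure D2:**
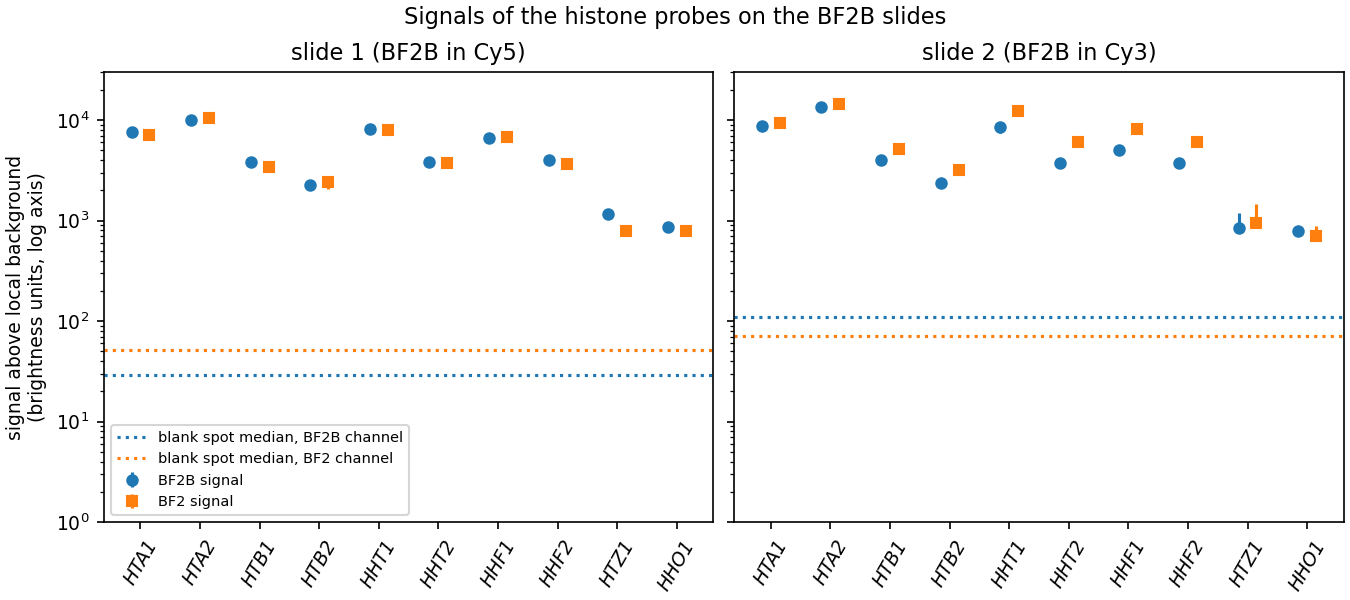
Signal above local background of each histone probe in BF2B (circles) and BF2 (squares) on both slides, on a log axis in brightness units. Points are the median of 3 spots, bars run from the lowest to the highest spot, and dotted lines are the medians of the blank spots; every histone signal lies above them, and probes are to be compared between strains, not with each other.

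The variant and linker genes lay above 0. HTZ1 gave 1157.5 units in BF2B and 787 in BF2 on slide 1, and 845 and 958 on slide 2. Its log2 ratios were 0.41 and 0.0013, with a mean of 0.21 ± 0.29 or 1.15-fold. The higher value thus rests on slide 1, and slide 2 gave no difference. HHO1, whose product H1 binds linker DNA, gave 868 and 793 units on slide 1 and 793.5 and 706.5 on slide 2. Its log2 ratios of 0.0052 and 0.26 averaged 0.13 ± 0.18, and BF2B read higher than BF2 on both slides, although the BF2B signal was not above background on slide 2. For both genes the mean was smaller than the SD. Under median centring HTZ1 changed sign, with 0.52 and -0.10, and HHO1, at 0.09 and 0.20, was the 1 histone gene of the 10 with the same sign on both slides.

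Values within a slide were tighter than values between slides. The SD of the log2 ratio over the 3 spots of a histone probe was 0.01 to 0.10 on slide 1 and 0.01 to 0.13 on slide 2. Between slides the SD ran from 0.09 to 0.42, with a median of 0.21, beside a median of 0.19 over all genes above background. Of the 10 histone genes 6 had the same sign on both slides, where 63.6% of all genes did. No histone spot was saturated or marked on the BF2B slides, so neither limit touches these values. Of all gene spots 54.6% were marked on slide 1 and 0% on slide 2, so on slide 2 the absence of marks holds for every gene.

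The copies of a gene were then set against each other by their ratios, since levels of different probes cannot be compared. HTA1 exceeded HTA2 by a log2 difference of 0.17 on slide 1 and -0.02 on slide 2, with a mean of 0.08 ± 0.13. For HTB1 minus HTB2 the differences were 0.21 and 0.04, with a mean of 0.13 ± 0.11. After loess the H2B copies alone had a difference of the same sign on both slides, about as large as its SD, and under median centring it was 0.24 and -0.01. For HHT1 minus HHT2 the differences were -0.04 and 0.14, with a mean of 0.05 ± 0.13. For HHF1 minus HHF2 they were -0.23 and 0.07, with a mean of -0.08 ± 0.21. No mean difference between copies was larger than the pooled spread of 0.15. Where one copy moved between the slides, the other moved the same way: after loess both H2A genes were higher on slide 2 than on slide 1, and both H2B, both H3 and both H4 genes were lower. Under median centring all 8 genes were lower on slide 2. Equal ratios would also arise if a probe bound RNA of both copies, which was not tested.

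**Figure D3:**
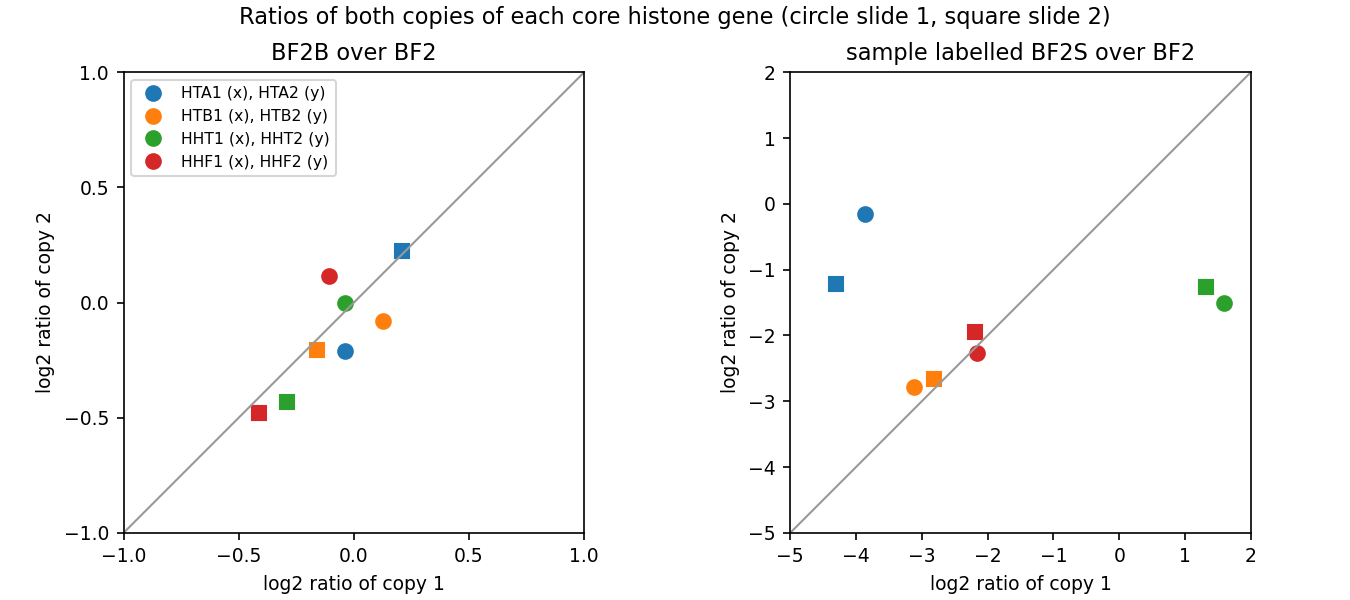
Log2 ratio of copy 2 (y axis) against copy 1 (x axis) for the 4 core histone gene pairs, circles for slide 1 and squares for slide 2, with the line of equal ratios. On the BF2B slides (left) all 8 points lie near the line, and on the BF2S slides (right, on a wider scale) the H2A and H3 pairs lie far from it, with mean differences of -3.40 and 2.83, where median centring gave -1.62 and 0.92 and the BF2S signal of HTA1 was not above background on slide 2.

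The genes of a divergent locus, which share a promoter, were compared in the same way. HHF1 minus HHT1 was -0.07 on slide 1 and -0.12 on slide 2, with a mean of -0.09 ± 0.03, and HHF2 minus HHT2 was 0.12 and -0.05, with a mean of 0.04 ± 0.12. The H3-H4 loci thus held neighbours with nearly the same ratio. HTA1 minus HTB1 was -0.16 and 0.37, with a mean of 0.10 ± 0.38, and HTA2 minus HTB2 was -0.13 and 0.43, with a mean of 0.15 ± 0.40. At both H2A-H2B loci the difference changed sign between the slides after loess, and at HTA2-HTB2 it was 0.09 and 0.28 under median centring. The 6 genes at the loci under HIR control had a median log2 ratio of -0.17, and HTA2 and HTB2, at the locus outside it, had 0.0078 and -0.14, so both kinds of locus lay in the same range.

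Genes that act on histone genes and histones were examined as lists in the same comparison. Of 13 regulators of histone gene transcription, 10 were above background, with 0 higher, 0 lower and a median log2 ratio of -0.04. The farthest were SWI6, a subunit of the SBF and MBF factors of the G1/S transition, at 0.42 ± 0.19, and the repressor RTT106 at 0.34 ± 0.05. For both, BF2 was not above background on slide 1, where all 3 spots carried the scanner's mark, and BF2B was not on slide 2, so these sizes are uncertain. SPT10, RTT109 and SWI4 were below background on at least 1 slide. Of 13 histone chaperones and assembly factors, 12 were above background, again with 0 called, and their median was 0.06. HIF1, which works with the Hat1-Hat2 acetyltransferase, stood at 0.46 ± 0.18 and SPT16, a subunit of the FACT complex, at 0.28 ± 0.21. The BF2 signal of HIF1 was not above background on slide 1, where all 3 spots carried the scanner's mark. SPT16 was above background throughout, but under median centring it stood at 0.70 on slide 1 and -0.17 on slide 2. CSE4, the H3 variant of centromeres, had a log2 ratio of 0.08 ± 0.46, with -0.24 on slide 1 and 0.41 on slide 2, and was above background in 1 channel of each slide. The probe of SCM3, the gene of its chaperone, was below background on slide 1.

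Histone transcription is tied to S phase, so transcripts of DNA replication were set beside it. Of 10 such genes 8 were above background, 2 were called higher, beside 1.37% of all genes, 0 lower, and the median was 0.34. The mean was above 0 for 7 of the 8, beside a median of -0.01 over all genes above background. The rise was not uniform: CDC9 had a mean of -0.08, with -0.29 on slide 2, and PRI2 a mean of 0.0092. RFA2 was at -0.07 on slide 1 and POL1 at 0.01 on slide 2. RNR1, the large subunit of ribonucleotide reductase, gave 701 units in BF2B and 217 in BF2 on slide 1, and 961.5 and 385 on slide 2, with a mean log2 ratio of 1.15 ± 0.16. The BF2 signal of RNR1 was not above background on slide 1, where all 3 of its spots carried the scanner's mark, so the size of its ratio is uncertain. RFA1, a subunit of the single-strand binding protein, gave 2197 and 852 units on slide 1 and 2550.5 and 1300 on slide 2, with a mean of 1.13 ± 0.04, and was above background in both channels throughout. Both were higher in BF2B on both slides, whereas the highest mean of a core histone gene was 0.09, for HTA1, and reached 0.25 under another processing. The difference between the lists was not tested, and the list was drawn up with earlier results on RNR1 and RFA1 known.

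**Figure D4:**
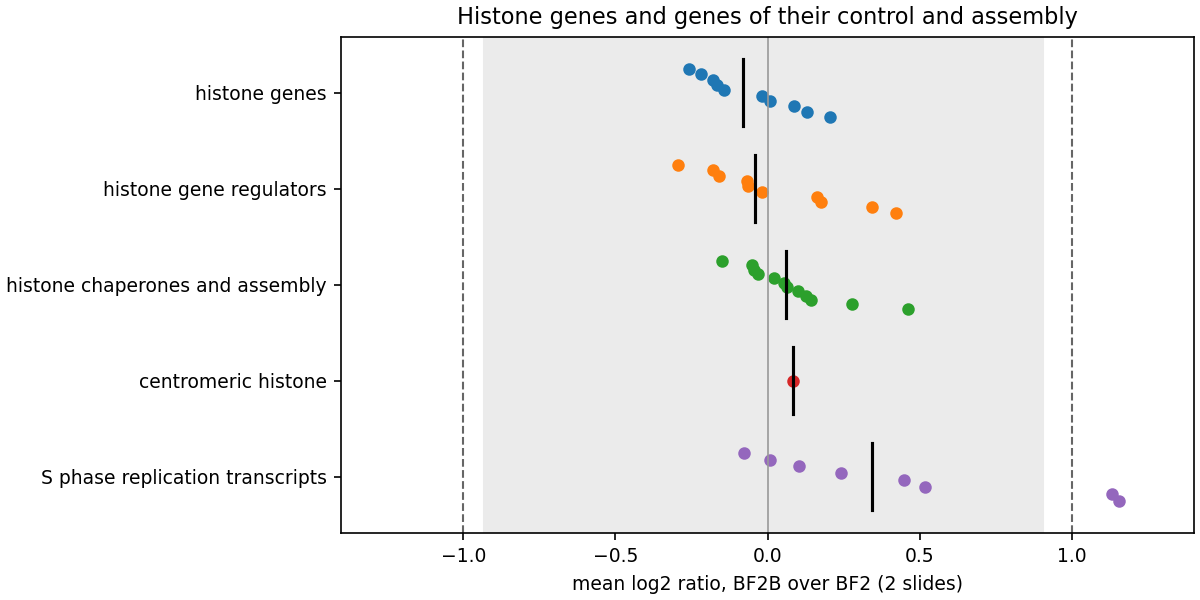
Mean log2 ratio of BF2B over BF2 for the genes above background in each list, with the median of the list as a black bar, dashed lines at 2-fold and the middle 95% of all genes above background in grey. The histone genes, their regulators and the chaperones lie around 0, and RNR1 and RFA1 lie to the right of the 2-fold line.

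On the remaining slides BF2 was set against the sample labelled BF2S, whose strain carries SIR2 H besides BDF2 L. Of the histone genes 7 were called lower, where 25.1% of the 5290 genes above background were, and 1 was called higher, where 19.3% were. In either direction 44.4% of genes were called on these slides. At over 1.5-fold 8 of the 10 histone genes passed, beside 63.3% of all genes. Their median log2 ratio of BF2S over BF2 was -2.12, beside 0.05 over all genes. In the BF2S channel all 10 histone signals lay below the median of the blank spots on both slides. Only 7 of the 10 were above local background there on slide 1, and 2 on slide 2. In the BF2 channel all 10 were above local background, and 9 lay above the median of the blank spots, on both slides. The part of the blank signal in these ratios was not tested.

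The copies of H2A and of H3 had very different ratios after loess, and the copies of H2B and of H4 had closer ones. HTA1 gave 848 units in the sample labelled BF2S and 19167.5 in BF2 on slide 1, and -120.5 and 17208.5 on slide 2, with log2 ratios of -3.87 and -4.30. Its BF2S signal was above background on slide 1 only, so the size of its mean of -4.08 ± 0.30 is uncertain. HTA2 gave 3194 and 22099.5 units on slide 1 and 980 and 15896 on slide 2, with log2 ratios of -0.15 and -1.21, and was not called. Its mean of -0.68 ± 0.75 became -2.97 under median centring. The H2B genes had BF2S signals that did not rise above background on slide 1 or slide 2. In the main processing the bound was 5.82-fold lower for HTB1 and 4.18-fold lower for HTB2, with the dim channel set at no less than the lowest signal above background after loess. These bounds do not hold under every processing. The log2 ratio of HTB1 was -2.44 without background subtraction, and that of HTB2 was -1.95 without the marked spots. Both are smaller folds than the bounds.

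HHT1 was the 1 gene called higher, and its direction rests on the correction. It gave 5803 units in the sample labelled BF2S and 11942.5 in BF2 on slide 1, and 3613.5 and 12687 on slide 2. Its BF2S signal was thus the lower of the 2 on both slides, yet loess turned this into log2 ratios of 1.59 and 1.31, with a mean of 1.45 ± 0.20. Median centring gave -1.10 and -1.48, with a mean of -1.29. HHT2 gave 2019 and 9050.5 units on slide 1 and 1031 and 8666 on slide 2, with log2 ratios of -1.5 and -1.26 and a mean of -1.38 ± 0.17. Under median centring HHT2 stood at -2.21, so both H3 copies lay below 0 there. The H4 copies were close after loess, with HHF1 at -2.17 and -2.20, a mean of -2.18 ± 0.02, and HHF2 at -2.27 and -1.95, a mean of -2.11 ± 0.22. Both were above background in the BF2S channel on slide 1 only, as was HHT2. Under median centring HHF1 minus HHF2 was -0.40 on slide 1 and -0.68 on slide 2.

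**Figure D5:**
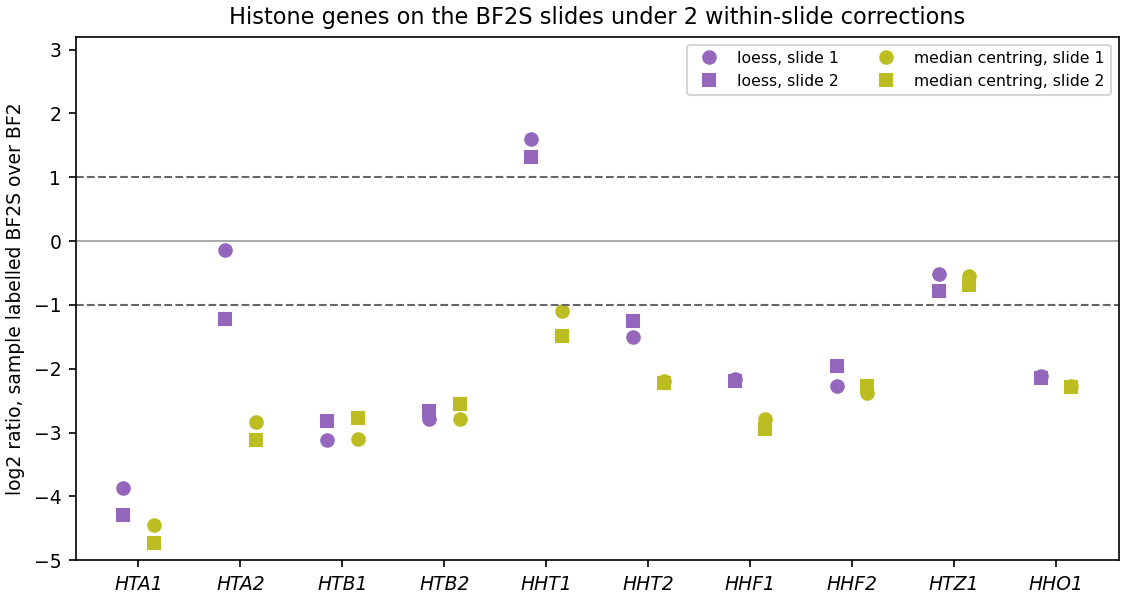
Log2 ratio of the sample labelled BF2S over BF2 for each histone gene on slide 1 (circles) and slide 2 (squares), after loess (left of each tick) and after median centring (right of each tick), with dashed lines at 2-fold. HHT1 lies above 0 after loess and below 0 after median centring, and HTA2 falls from -0.68 to -2.97 in its mean.

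HTZ1 gave 1417 units in the sample labelled BF2S and 1713 in BF2 on slide 1, and 702.5 and 2094.5 on slide 2. With log2 ratios of -0.52 and -0.78 and a mean of -0.65 ± 0.18 it was not called. Its BF2S signal was not above background on slide 2, where all 3 spots were marked, and in the authors' deposited table, centred on its median, the ratio was -1.69. HHO1 gave 139 and 941 units on slide 1 and -526 and 1269.5 on slide 2. Its BF2S signal rose above background on neither slide, and it was at least 1.11-fold lower. The difference between the copies was -3.40 ± 0.45 for HTA1 minus HTA2 and 2.83 ± 0.37 for HHT1 minus HHT2, but -0.25 ± 0.13 for H2B and -0.07 ± 0.24 for H4. Under median centring the first of these fell in size to -1.62 and the second to 0.92, while H2B stood at -0.27 and H4 at -0.54. The BF2 channel, the same strain on all 4 slides, gave signals for HTA1 from 7198.5 to 19167.5 units and for HHT1 from 7995 to 12687 units. Since BF2 is shared by both comparisons, their ratios are not independent of each other.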

How the data were processed

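Per the labels, total RNA was amplified linearly by the Eberwine method and Klenow enzyme put Cy5 or Cy3 into the cDNA. Per the file headers, the deposited scanner files give spot and background intensity in both channels, Cy5 read at 635 nm and Cy3 at 532 nm. Values in the deposited table are log2 ratios. Checked against the scanner files, they followed strain over BF2 from the first of a probe's 3 spots, uncentred, with correlations of 0.9998 to 0.99997. On each slide 63.4% to 69.8% of values lay within 0.001 of that ratio. The rest differed by more, and how they were derived was not tested. Background was corrected by normexp (offset 50), slides by loess fitted to gene spots, and spots averaged, with limma 3.58.1 in R 4.3.3 and Python 3.11.15. Above background means that 2 or 3 of the 3 spots had medians over the mean of the local background plus 2 of its SDs. A bound on a fold compares normalized log2 channel levels, with the dim channel set no lower than the faintest probe above background. Spots that the scanner files mark with a negative flag were kept. On arrays, signal over background limits precision. Of 6388 gene probes, 5806 matched the RefSeq table by systematic name, and all 51 listed genes did.

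Every histone gene is named, as are BDF1, BDF2, SIR2, CSE4 and SCM3, and of the other lists the called genes in BF2B or else the 2 farthest from 0 above background. SPT10, RTT109, SWI4, CDC9, PRI2, RFA2 and POL1 are named besides, chosen after their values were seen. Genes and lists were chosen with earlier results of these data known. Alternatives were an offset of 10, unsubtracted signals, median centring, scaling between slides, the deposited table, the median of spots, marked spots left out, each slide alone, other filters and thresholds and, added after the data were seen, print-tip loess.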

Additional observations from a re-analysis of the deposited data

Results flagged for a closer look

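For HHT1, HTZ1 and HHO1 both BF2B slides lay on one side of 0 and both BF2S slides on the other, and the differences were not tested. The log2 ratio of BF2S minus that of BF2B was 1.62 for HHT1, -0.85 for HTZ1 and -2.27 for HHO1. For HTZ1 the BF2B value on slide 2 was 0.0013 and for HHO1 that on slide 1 was 0.0052, so their side of 0 is not settled. The BF2S signal of HHO1 was not above background on either slide, so the size of its difference is not measurable. The bound of 1.11-fold lower in BF2S is not secure, since the BF2 signal of HHO1 lay below the median of the blank spots. For HHT1 the BF2S ratio fell below 0 under median centring. Its BF2B ratio was then 0.29 on slide 1 and -0.63 on slide 2, so its side of 0 is not settled either.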

How the results depend on the processing

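No paired analysis was possible because both slides of a comparison hold the same RNA pair and no test was made. In BF2B the count of 0 histone genes called held under all 16 alternatives, and the median log2 ratio stayed between -0.18 and -0.02. The copy differences moved by less than their pooled spread of 0.15, which was larger than each mean difference, so changes of sign passed as unmoved. HTA1 minus HTA2 was -0.02 and HHF1 minus HHF2 0.07 on slide 2 alone, and HHT1 minus HHT2 was -0.04 on slide 1 alone. Of 100 values of single histone genes 98 moved by less than the spread of 0.29. The exceptions were HHF2 at 0.12 on slide 1 alone and -0.48 on slide 2 alone. Both spreads were taken from the same slides, so for the values of one slide alone these counts are no measure of robustness. The genes called in all numbered 411 at 1.5-fold, 30 at 3-fold, and 224 to 227 on one slide alone. In the comparison of BF2S 1303 genes were called without the marked spots, 780 with both channels above background, 721 among probes brighter than 95% of blank spots, and 1102 at 3-fold. The histone genes called numbered 5 in the deposited table, where 3 of the 10 lack a value, and 1 with both channels above background. Their median log2 ratio was -1.54 without background subtraction, -2.5 under median centring, -2.03 without the marked spots, -1.81 under print-tip loess, -2.70 in the deposited table, -2.14 to -2.05 on one slide alone, and 0.39 over HTA2 and HHT1, the genes with both channels above background. HHT1 reversed to -1.29 under median centring and to -1.16 in the deposited table; the cause was not tested. Of 95 values of single histone genes in BF2S 70 moved by less than the spread of 0.35, 23 by more and 2 reversed. HTA1 ran from -4.59 to -3.07, HTB1 from -4.42 to -2.44, HHF1 from -3.25 to -1.62, and HTZ1 reached -1.69 in the deposited table.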
